A study of Mus musculus with 12 samples.

Results

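The collagen genes of mouse muscle stem cells (MuSCs) were described in 12 RNA-seq libraries. A gene was taken as a collagen when its name in the count tables had the form Col, a number, a and a number, and 44 of the 55335 genes in the tables met this rule. The 44 genes comprised 8 fibrillar collagens, 3 chains of type V, 6 of type IV, 6 of type VI, 9 fibril-associated collagens with interrupted triple helices (FACIT), 2 multiplexins, 4 transmembrane collagens, 3 short-chain collagens and 3 others. All 44 had enough reads to enter the test, which covered 22635 genes.

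All libraries came from hindlimb muscle of Pax7-ZsGreen mice aged 3 to 6 months, a strain in which cells that express Pax7 carry a green fluorescent protein, and from cells sorted by that fluorescence. F cells were lysed as they left the sorter. 2d-U and 5d-U cells were grown for 2 and 5 days, without compression, on plates coated with Matrigel and fibronectin. 2+3d-C cells were grown for 2 days without compression and for 3 more days under a silicone device. In this device, a film held up by short pillars limited the height of the cells. Each group had 3 libraries, numbered 1, 4 and 5 for F, 1, 2 and 3 for 2d-U, 1, 2 and 6 for 5d-U and 4, 5 and 10 for 2+3d-C, and values are given in that order. Neither the labels nor the methods state which animals or sorts went into each library, so p-values measure the spread between these libraries.

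Collagens are secreted as trimers of chains wound into a helix, and a trimer may be built from the products of different genes. Fibrillar collagens assemble into the banded fibrils of connective tissue, type V collagen is built into these fibrils and limits their width, type IV collagen forms the network of basement membranes, and type VI collagen forms beaded microfilaments near them. In muscle, the MuSC lies between the fiber and its basement membrane, and the connective tissue between fibers is made mostly by fibroadipogenic cells. Type V collagen made by MuSCs themselves is known as a ligand of the calcitonin receptor (Calcr) that helps to keep them quiescent, and type VI collagen is a known component of the MuSC niche.

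Between 12540745 and 62424851 reads per library fell on genes, the fewest in 2+3d-C replicate 5 and the most in 2+3d-C replicate 4. Levels are reads per kilobase of exon, scaled to the size of each library by TMM (RPKM), so that genes of different length can be compared. Reads on 1546 genes of families silent in muscle served as a measure of reads that fall on genes without expression. They came to 5.07 and 7.24 reads per kilobase in F replicates 4 and 5, 3.78 in 5d-U replicate 1 and 0.638 in 5d-U replicate 6, and to 0.0104 to 0.239 in the other 8 libraries, so collagen reads near that density in these 4 libraries cannot be told apart from reads of this kind. MuSC and myoblast markers were detected in all groups, and the summed level of 10 such markers was 13971 to 15673 CPM (counts scaled to a common library size) in 2+3d-C, 3030 to 6977 in F, 2134 to 2541 in 2d-U and 1979 to 4536 in 5d-U. In 2+3d-C against 5d-U, 6 were called higher and 1 lower, beside 9.14% and 13.4% of all genes. Most of the sum in 2+3d-C was on Myod1 (275321, 70065 and 91039 reads), Sdc4 (269474, 26300 and 138062) and Vcam1 (178389, 21039 and 34436). Pax7 had 14.4, 15.1 and 10.3 RPKM there and Myog 1, 0 and 0 reads. The study used MyoD to mark progenitors and committed cells, so the sum does not measure stem cells alone.

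The summed level of the collagen genes was highest in F replicates 4 and 5 and was higher in 2 of the 3 compressed libraries than in any uncompressed one. F libraries held 1533, 8614 and 12815 CPM of collagen reads, 2d-U libraries 724, 464 and 502, 5d-U libraries 419, 567 and 240 and 2+3d-C libraries 3038, 679 and 2345. F replicate 1 held several times less collagen RNA than the other F libraries, and 2+3d-C replicate 5 less than the other compressed libraries. Of the 44 genes, 30 had a mean of at least 1 RPKM in F, 17 in 2+3d-C and 9 each in 2d-U and 5d-U. In 2d-U, 17 genes had 0 reads in all 3 libraries, whereas in 2+3d-C this held for 4 genes, Col6a4, Col8a2, Col9a2 and Col28a1.

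**Figure D1:**
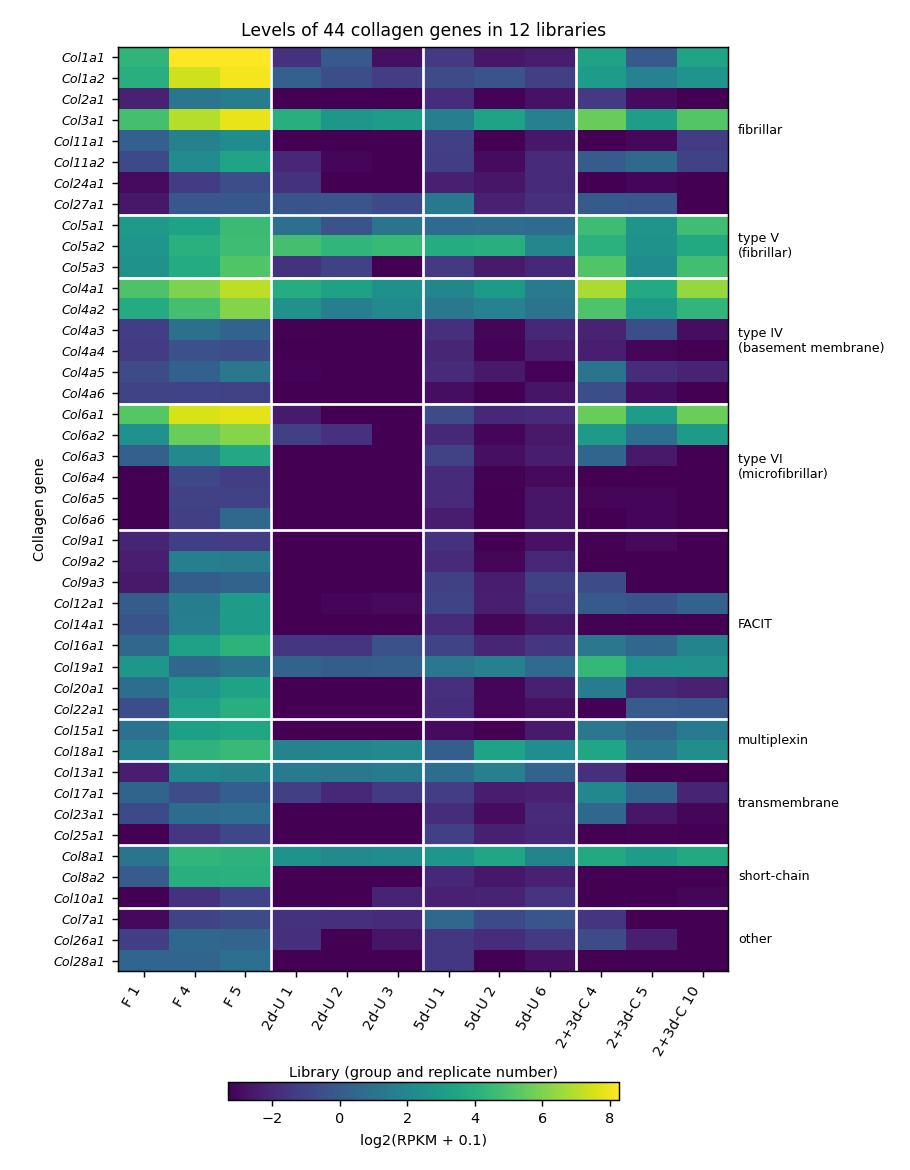
Levels of the 44 collagen genes as log2(RPKM + 0.1), with genes by class down the side and the 12 libraries by group and replicate number across. Col1a1 reached 307 RPKM in F replicates 4 and 5, and 17 genes had 0 reads in every 2d-U library.

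The classes took different shares of the collagen reads in each group. Fibrillar collagens other than type V took 40.7%, 64.0% and 61.2% of the collagen reads in F and 18% to 24.5% in the 9 cultured libraries. Type V took 40.8%, 42.1% and 48.1% in 2d-U and 20.2% to 22.6% in 2+3d-C. The type IV share of the compressed libraries was 34.9%, 23.1% and 32.9%, and each lay above the 11.8% to 20.3% of the 6 uncompressed libraries. Type VI took 9.56%, 7.77% and 12.2% in 2+3d-C and 13.5% to 15.2% in F, and at most 2.83% in any uncompressed library.

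**Figure D2:**
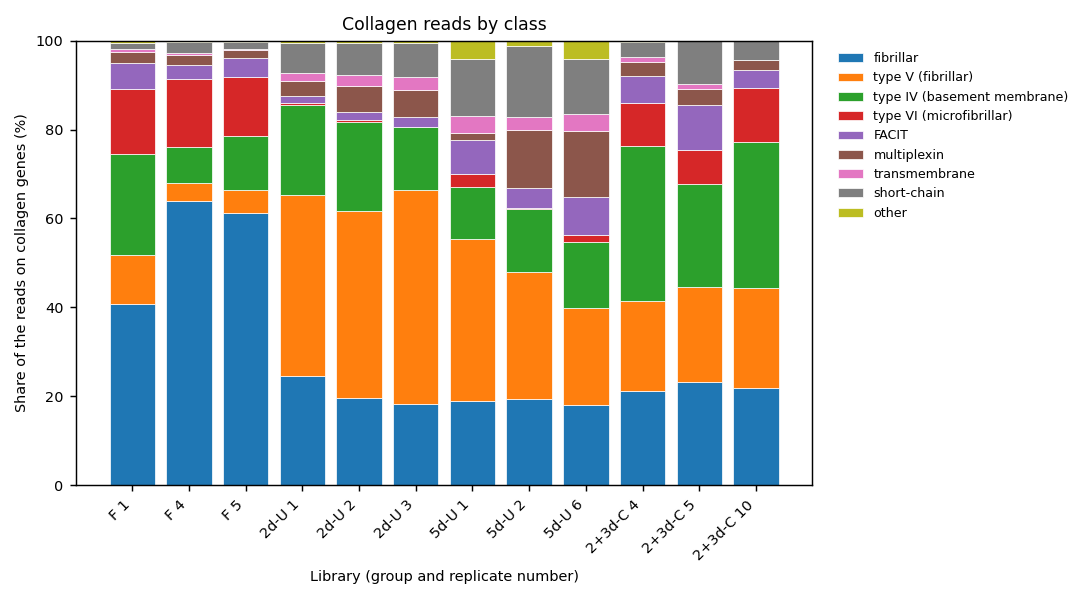
Share of the reads on collagen genes, in percent, taken by each of 9 classes in each of the 12 libraries. The fibrillar share is largest in F (40.7% to 64.0%), the type V share is largest in 2d-U (40.8% to 48.1%), and type VI is at most 2.83% in the uncompressed libraries.

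The comparison of 2+3d-C with 5d-U asks what compression over the last 3 days did to cells of the same total time in culture. Of the 44 collagens, 13 were higher in 2+3d-C (29.5%, against 9.14% of all genes tested) and 5 were lower (11.4%, against 13.4%), by edgeR's quasi-likelihood test at an adjusted p under 0.05. The median log2 fold change was 0.83 over the collagens and -1.05 over all genes. For 13 collagens every compressed library lay above every 5d-U library (12.6% of all genes), and for 9 every one lay below (29.7% of all genes). The 13 genes called higher were 3 of 8 fibrillar chains, 2 of 3 type V, 2 of 6 type IV, 2 of 6 type VI and 2 of 9 FACIT chains, 1 of 2 multiplexins and 1 of 4 transmembrane collagens.

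The comparison with 2d-U asks how the compressed cells differed from cells at the point where compression began. Here 23 collagens were higher after compression (52.3%, against 16% of all genes) and 1 was lower (2.27%, against 8.63%). The groups did not overlap for 18 collagens that lay higher (18.1% of all genes) and 2 that lay lower (17.4%). Among the 23 were 4 of 8 fibrillar, 2 of 3 type V, 6 of 6 type IV, 3 of 6 type VI and 6 of 9 FACIT chains, 1 of 2 multiplexins and 1 of 4 transmembrane collagens. For 10 of the 23 no read was found in any 2d-U library, so folds for these are lower bounds against 3 reads in each 2d-U library. Against F, 0 collagens were higher in 2+3d-C (1.94% of all genes) and 6 were lower (13.6%, against 4.47%), and 23 differed at an unadjusted p under 0.05. DESeq2 called 0 higher and 18 lower (822 and 4233 of all 49901 genes). Every compressed library lay above every F library for 0 collagens (8.79% of all genes) and below for 10 (18.3%).

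Type V collagen showed a change in the balance of its chains. The chains of Col5a1 and Col5a2 build the common heterotrimer, and Col5a3 encodes a further chain that joins them in some tissues. For Col5a1 (ENSMUSG00000026837.16, mm10 chr2:27886425-28039514, plus strand), F libraries had 7.58, 10.5 and 23.8 RPKM, 2d-U libraries 1.76, 0.677 and 2.08, 5d-U libraries 1.54, 1.69 and 1.55 and 2+3d-C libraries 25.3, 6.21 and 25.8. Every compressed library lay above every uncompressed one, and F and 2+3d-C overlapped. Up to 2.48% of its exon bases overlap with other annotated genes, so reads there cannot be assigned without strand. Its log2 fold change in 2+3d-C, with SE, was 3.58 ± 0.64 relative to 5d-U (adjusted p of 0.00133) and 3.66 ± 0.64 relative to 2d-U (adjusted p of 0.00101). Relative to F it was 0.45 ± 0.58 (adjusted p of 0.615).

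Col5a3 (ENSMUSG00000004098.7, chr9:20770050-20815067, minus strand) had the larger contrast. Its F libraries had 5.98, 14.0 and 34.1 RPKM, 2d-U libraries 0.222, 0.374 and 0, 5d-U libraries 0.275, 0.0769 and 0.151 and 2+3d-C libraries 34.8, 4.93 and 26.9. The mean was 22.2 ± 15.5 RPKM in 2+3d-C (SD, n = 3) and 0.167 ± 0.0999 in 5d-U, a 133-fold ratio. Compressed and uncompressed libraries did not overlap, and the log2 difference was 7.05 ± 1.34 (adjusted p of 0.00199) relative to 5d-U, 6.82 ± 1.32 (adjusted p of 0.00203) relative to 2d-U and 0.30 ± 1.02 (adjusted p of 0.864) relative to F.

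Col5a2 (ENSMUSG00000026042.16, chr1:45374321-45503282, minus strand) did not follow these chains. Its F libraries had 6.73, 16.2 and 24.9 RPKM, 2d-U libraries 29.1, 19.5 and 23.3, 5d-U libraries 14.3, 15.2 and 3.95 and 2+3d-C libraries 16.8, 6.13 and 13.0. It was the most abundant collagen in every 2d-U library and in 5d-U replicates 1 and 2, and 2+3d-C overlapped with 5d-U. None of the 3 comparisons of 2+3d-C called it, with log2 fold changes of 0.10 ± 0.56 (adjusted p of 0.898) relative to 5d-U, -1.0 ± 0.57 (adjusted p of 0.219) relative to 2d-U and -0.41 ± 0.56 (adjusted p of 0.645) relative to F. The ratio of Col5a1 to Col5a2 in RPKM was thus 0.0605, 0.0347 and 0.0893 for 2d-U libraries, 0.108, 0.111 and 0.393 for 5d-U libraries, 1.5, 1.01 and 1.98 for 2+3d-C libraries and 1.13, 0.646 and 0.954 for F libraries. The 6 uncompressed libraries all lay below the libraries of F and 2+3d-C. The ratio of Col5a3 to Col5a1 was 1.37, 0.794 and 1.04 for 2+3d-C libraries and 0.789, 1.33 and 1.43 for F libraries. It was 0.0454 to 0.178 in 5d-U and 0.126 and 0.552 in 2d-U replicates 1 and 2, and 2d-U replicate 3 had no read of Col5a3. Every uncompressed library thus lay below every library of F and 2+3d-C, with 2d-U replicate 2 the nearest to them.

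The 250 bases before the start site are shown for Col5a1 and Col5a3, which rose, and for Col13a1, a transmembrane collagen that fell in 2+3d-C and is described later. They are from RefSeq on GRCm38.p6 (mm10), where 35 of the 44 collagens had an entry, and each window ends at the base before the start that the count tables give. The motifs searched on both strands were TGGGAA for RBPJ (the DNA-binding partner of Notch), GGAATG for TEAD (the partner of YAP), TGANTCA for AP-1, CAGCTG for an E-box of the kind bound by MyoD, CCAAT for the CCAAT box, GGGCGG for the GC box and TATAAA for the TATA box. Capitals mark matches, and no matches in these windows overlapped.
Col5a1, chr2:27886175-27886424, plus strand: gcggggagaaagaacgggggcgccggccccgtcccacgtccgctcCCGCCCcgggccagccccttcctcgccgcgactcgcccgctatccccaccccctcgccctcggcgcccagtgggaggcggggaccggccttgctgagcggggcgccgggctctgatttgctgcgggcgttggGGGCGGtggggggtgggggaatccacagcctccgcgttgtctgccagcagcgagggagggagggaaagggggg
Col5a3, chr9:20815068-20815317, minus strand: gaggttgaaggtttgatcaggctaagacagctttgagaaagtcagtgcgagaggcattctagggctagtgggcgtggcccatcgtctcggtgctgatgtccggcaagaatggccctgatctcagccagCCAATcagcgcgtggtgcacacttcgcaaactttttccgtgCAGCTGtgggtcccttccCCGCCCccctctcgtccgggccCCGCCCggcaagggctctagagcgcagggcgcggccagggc
Col13a1, chr10:61979109-61979358, minus strand: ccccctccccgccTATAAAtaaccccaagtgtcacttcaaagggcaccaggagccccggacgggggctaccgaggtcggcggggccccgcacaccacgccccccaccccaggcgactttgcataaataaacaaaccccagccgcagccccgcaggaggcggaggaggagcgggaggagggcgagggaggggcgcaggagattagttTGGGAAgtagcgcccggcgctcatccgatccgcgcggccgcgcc

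Counted back from the start site, the Col5a1 window held GC boxes that begin at -205 and -73. The Col5a3 window held GC boxes at -63 and -41, an E-box at -81 and a CCAAT box at -122, and the Col13a1 window held an RBPJ match at -44 and a TATA box at -237. The GC box was in 57.9% of collagen windows and 32.7% of all 32851 windows of the same length. The RBPJ letters were in 31.6% of collagen windows and 21.6% of all, the CCAAT box in 34.2% of collagen windows and 33.8% of all, the E-box in 15.8% of collagen windows and 13.0% of all, the TATA box in 13.2% of collagen windows and 12.4% of all, the TEAD letters in 10.5% of collagen windows and 12.6% of all and the AP-1 letters in 2.63% of collagen windows and 6.75% of all. There were 38 collagen windows from the 35 genes, and a match of letters does not show that a factor binds.

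The basement membrane chains of type IV were led by Col4a1 and Col4a2, the pair found in nearly all basement membranes. For Col4a1 (ENSMUSG00000031502.11, chr8:11198423-11312826, minus strand), F libraries had 32.5, 64.8 and 140 RPKM, 2d-U libraries 14.2, 9.79 and 5.57, 5d-U libraries 3.90, 7.81 and 2.56 and 2+3d-C libraries 109, 13.5 and 85.9. It was the most abundant collagen in each compressed library, all of which lay above 5d-U, while replicate 5 overlapped with 2d-U. Its log2 fold change was 3.87 ± 0.78 (adjusted p of 0.0028) relative to 5d-U, 2.82 ± 0.74 (adjusted p of 0.0131) relative to 2d-U and -0.19 ± 0.69 (adjusted p of 0.879) relative to F.

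Col4a2 (ENSMUSG00000031503.13, chr8:11312805-11449287, plus strand) lies head to head with Col4a1, with start sites 21 bases apart, so the first exons overlap and reads on them cannot be assigned without strand. The shared bases were 0.295% of the exon bases of Col4a1 and at most 0.982% of those of Col4a2. For Col4a2, F libraries had 13.7, 28.5 and 69.4 RPKM, 2d-U libraries 6.18, 3.06 and 4.49, 5d-U libraries 2.36, 3.40 and 2.07 and 2+3d-C libraries 34.0, 7.32 and 19.5, without overlap between compressed and uncompressed libraries. Its log2 fold change was 2.96 ± 0.65 (adjusted p of 0.00475) relative to 5d-U, 2.15 ± 0.62 (adjusted p of 0.022) relative to 2d-U and -0.87 ± 0.60 (adjusted p of 0.313) relative to F. The call relative to 2d-U was lost without 2+3d-C replicate 4 (adjusted p of 0.103) or 2d-U replicate 2 or 3 (adjusted p of 0.0835 and 0.0624). The ratio of Col4a1 to Col4a2 lay between 1.24 and 4.40 in the 12 libraries.

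The other 4 type IV chains, which build the networks of specialised basement membranes such as those of the kidney and lung, were far rarer. For Col4a3, F libraries had 0.334, 1.84 and 1.19 RPKM, 2d-U libraries 0.00379, 0 and 0, 5d-U libraries 0.196, 0.0140 and 0.152 and 2+3d-C libraries 0.120, 0.582 and 0.0367. For Col4a5, F libraries had 0.545, 1.10 and 2.32 RPKM, 2d-U libraries 0.00844, 0 and 0, 5d-U libraries 0.162, 0.0727 and 0.00728 and 2+3d-C libraries 2.09, 0.180 and 0.122. Both passed the test relative to 2d-U (adjusted p of 0.00675 and 0.00592) and not relative to 5d-U (adjusted p of 0.533 and 0.0933). Col4a4 had 53, 1 and 0 reads and Col4a6 248, 2 and 0 reads in the compressed libraries. Neither had a read in 2d-U, and they had 33, 2 and 19 and 6, 0 and 9 reads in 5d-U and 76, 210 and 251 and 80, 100 and 122 in F. Their calls relative to 2d-U rested on 2+3d-C replicate 4, without which the adjusted p was 0.293 for Col4a4 and 0.177 for Col4a6, and both were also lost without any single 2d-U library (adjusted p of 0.0508 to 0.0831).

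Type VI collagen is a trimer of the products of Col6a1, Col6a2 and, mostly, Col6a3. For Col6a1 (ENSMUSG00000001119.7, chr10:76708792-76726168, minus strand), F libraries had 37.2, 190 and 219 RPKM, 2d-U libraries 0.0777, 0 and 0, 5d-U libraries 0.546, 0.143 and 0.168 and 2+3d-C libraries 47.8, 8.41 and 50.7. Uncompressed libraries had at most 55 reads of it and compressed ones 11176, 305 and 4862 reads, so the groups stood far apart, and it was on average the second most abundant collagen of the compressed cells. Its log2 fold change was 6.96 ± 1.19 (adjusted p of 0.001) relative to 5d-U, 10.20 ± 1.38 (adjusted p of 0.00015) relative to 2d-U and -2.06 ± 0.94 (adjusted p of 0.13) relative to F. The 2d-U libraries had 18, 0 and 0 reads, so the size relative to 2d-U rested on replicate 1, and without it the fitted value was 15.16, set by the prior count (adjusted p of 2.37e-05).

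Col6a2 (ENSMUSG00000020241.13, chr10:76595762-76623630, minus strand) is a neighbor of Col6a1 with its start 102538 bases away. Its F libraries had 5.80, 49.3 and 71.5 RPKM, 2d-U libraries 0.361, 0.212 and 0, 5d-U libraries 0.151, 0.0168 and 0.0705 and 2+3d-C libraries 7.87, 1.78 and 7.73. Compressed and uncompressed libraries did not overlap, and the log2 difference was 6.20 ± 1.39 (adjusted p of 0.00575) relative to 5d-U and 4.92 ± 1.29 (adjusted p of 0.0132) relative to 2d-U. Col6a3, the chain that completes the trimer, was rare in compressed cells, with 800, 7 and 0 reads. For Col6a3, F libraries had 1.08, 4.23 and 12.6 RPKM, 2d-U libraries 0 in each, 5d-U libraries 0.367, 0.0408 and 0.0859 and 2+3d-C libraries 1.25, 0.0707 and 0. Relative to 5d-U its log2 fold change was 1.45 ± 1.45 (adjusted p of 0.446). It was at least 65.9-fold higher than in 2d-U by the group means (adjusted p of 0.0102), a call that was lost without 2+3d-C replicate 4 (adjusted p of 0.0563). The ratio of Col6a1 to Col6a3 was 34.4, 45 and 17.4 for F libraries and 38.2 and 119 for 2+3d-C replicates 4 and 5. Replicate 10 had 50.7 RPKM of Col6a1 and no read of Col6a3. The alternative chains Col6a4, Col6a5 and Col6a6 had at most 7 reads in any compressed library.

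**Figure D3:**
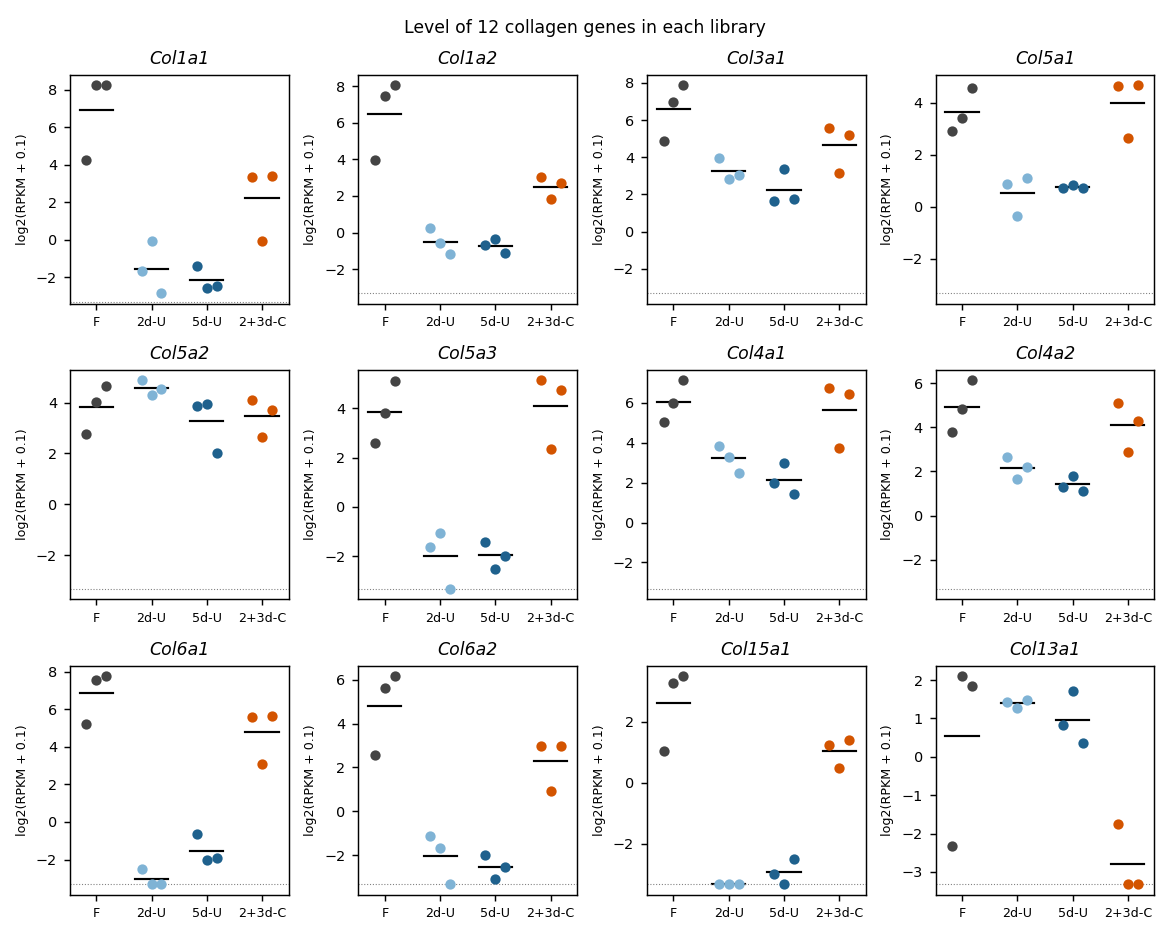
Level of 12 collagen genes as log2(RPKM + 0.1), with a point for each of the 3 libraries of each group, a bar at the mean of the log2 values and a dotted line at 0 reads. Col1a2, Col5a1, Col5a3, Col4a2, Col6a1, Col6a2 and Col15a1 lie higher in all compressed than in all uncompressed libraries, as does Col1a1 by a small margin. Col5a2 overlaps between 2+3d-C and 5d-U, and Col13a1 is lower under compression than in either uncompressed group.

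The fibrillar collagens of type I and type III, the bulk collagens of muscle connective tissue, were on average highest in F and intermediate in 2+3d-C. For Col1a1 (ENSMUSG00000001506.10, chr11:94936224-94953042, plus strand), F libraries had 19.1, 307 and 307 RPKM, 2d-U libraries 0.213, 0.842 and 0.0371, 5d-U libraries 0.278, 0.0638 and 0.0820 and 2+3d-C libraries 10.0, 0.847 and 10.6. The lowest compressed library, replicate 5, held 46 reads and lay only just above the highest 2d-U library. The log2 difference was 5.67 ± 1.31 (adjusted p of 0.00683) relative to 5d-U, 4.32 ± 1.22 (adjusted p of 0.0188) relative to 2d-U and -4.88 ± 1.24 (adjusted p of 0.0352) relative to F. The call relative to F was lost without F replicate 4 or 5 (adjusted p of 0.0952 and 0.0912) and without 2+3d-C replicate 5 or 10 (adjusted p of 0.0763 and 0.0505).

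For Col1a2, the partner chain (ENSMUSG00000029661.16, chr6:4504814-4541544, plus strand), F libraries had 15.8, 173 and 268 RPKM, 2d-U libraries 1.09, 0.583 and 0.337, 5d-U libraries 0.525, 0.691 and 0.358 and 2+3d-C libraries 7.98, 3.45 and 6.35. F lay above 2+3d-C, which lay above both uncompressed groups, and these overlapped with each other. The log2 difference was 3.50 ± 0.79 (adjusted p of 0.00589) relative to 5d-U, 3.15 ± 0.78 (adjusted p of 0.00929) relative to 2d-U and -4.68 ± 0.83 (adjusted p of 0.00803) relative to F. The ratio of Col1a1 to Col1a2 was 1.21, 1.77 and 1.15 for F libraries and 1.26, 0.245 and 1.67 for 2+3d-C libraries.

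For Col3a1 (ENSMUSG00000026043.18, chr1:45311538-45349706, plus strand), the type III chain that forms thin reticular fibers, F libraries had 28.8, 126 and 237 RPKM, 2d-U libraries 15.4, 6.96 and 8.25, 5d-U libraries 3.02, 10.1 and 3.23 and 2+3d-C libraries 46.8, 8.93 and 36.1. Replicate 5 of 2+3d-C overlapped with both uncompressed groups. Col3a1 rose relative to 5d-U by 2.49 ± 0.76 log2 units (adjusted p of 0.0306), a call that was lost without 2+3d-C replicate 4 or 10 (adjusted p of 0.0936 and 0.0534) or 5d-U replicate 1 or 6 (adjusted p of 0.066 and 0.099). Its log2 difference was 1.59 ± 0.74 (adjusted p of 0.13) relative to 2d-U and -2.09 ± 0.75 (adjusted p of 0.094) relative to F. The ratio of Col3a1 to Col1a1 was 4.67, 10.6 and 3.40 for 2+3d-C libraries and 1.51, 0.410 and 0.773 for F libraries.

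The remaining fibrillar chains were scarce. Col2a1, of cartilage fibrils, had 139, 2 and 0 reads in 2+3d-C, 0 in each 2d-U library, 37, 2 and 9 for 5d-U and 24, 635 and 1059 for F. Col11a1, of the same fibrils, had 0, 2 and 86 reads in 2+3d-C, 0 in each 2d-U library, 104, 0 and 18 for 5d-U and 326, 1317 and 2426 for F. Each was called relative to 2d-U (adjusted p of 0.0264 and 0.0343) mainly on the reads of 1 library. Without replicate 4 the adjusted p of Col2a1 was 0.227, and without replicate 10 that of Col11a1 was 0.387, and both calls were also lost without 2d-U replicate 1 or 3 (adjusted p of 0.0532 to 0.0625). Col11a2, Col24a1 and Col27a1 were not called in any comparison of 2+3d-C.

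Among the FACIT collagens, which bind to fibrils or lie near basement membranes, Col16a1 and Col19a1 were called higher in 2+3d-C against 5d-U. For Col16a1, F libraries had 1.31, 9.78 and 17.9 RPKM, 2d-U libraries 0.258, 0.232 and 0.640, 5d-U libraries 0.412, 0.140 and 0.261 and 2+3d-C libraries 2.30, 1.34 and 3.66, without overlap between compressed and uncompressed libraries. The log2 difference from 5d-U was 3.17 ± 0.84 (adjusted p of 0.015), and the call was lost without 5d-U replicate 2 or 6 (adjusted p of 0.0528 and 0.0508). For Col19a1, a collagen of basement membrane zones found in embryonic muscle, F libraries had 6.87, 1.34 and 2.07 RPKM, 2d-U libraries 1.2, 0.961 and 1.03, 5d-U libraries 2.32, 3.22 and 1.58 and 2+3d-C libraries 20.7, 5.67 and 6.02. Compressed libraries lay above all uncompressed ones, and it was the only collagen with a mean of at least 10 RPKM in 2+3d-C and below 10 RPKM in F. Its log2 difference was 2.19 ± 0.68 (adjusted p of 0.032) from 5d-U, 3.35 ± 0.71 (adjusted p of 0.0038) from 2d-U and 1.66 ± 0.67 (adjusted p of 0.109) from F. The call relative to 5d-U was lost without 2+3d-C replicate 4, where the value was 1.29 (adjusted p of 0.208), and without 5d-U replicate 1 or 6 (adjusted p of 0.0708 and 0.115).

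The other FACIT genes called higher than in 2d-U were Col9a3, Col12a1, Col20a1 and Col22a1. For Col12a1, a collagen of tendon and muscle matrix, F libraries had 0.967, 2.81 and 8.14 RPKM, 2d-U libraries 0.00124, 0.0103 and 0.0233, 5d-U libraries 0.411, 0.0962 and 0.289 and 2+3d-C libraries 0.864, 0.706 and 1.16. Its log2 difference was 6.27 ± 1.06 (adjusted p of 0.00078) from 2d-U and 1.78 ± 0.85 (adjusted p of 0.121) from 5d-U. Col22a1, a collagen of the junction of muscle and tendon, had 3, 69 and 165 reads in 2+3d-C and 0 in each 2d-U library, at least 66.2-fold higher (adjusted p of 0.00721), with 39, 3 and 8 reads for 5d-U and 127, 2841 and 5675 for F. Col20a1 had 804, 6 and 12 and Col9a3 109, 0 and 0 reads in 2+3d-C, so that most came from replicate 4. Neither had a read in 2d-U, and they had 23, 2 and 11 and 32, 9 and 28 reads in 5d-U and 215, 1028 and 2085 and 7, 115 and 183 in F. The adjusted p of Col9a3 relative to 2d-U was 0.0395, and its call was lost without 2+3d-C replicate 4, where no read was left in either group, without any single 2d-U library, and without 5d-U replicate 6 or F replicate 4 or 5 (adjusted p of 0.0524 to 0.0946 for the latter). Of the exon bases of Col9a3, 6.07% overlap with Tcfl5.

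Of the multiplexins, basement membrane collagens from which antiangiogenic fragments can be cut, Col15a1 rose and Col18a1 did not pass the test. For Col15a1 (ENSMUSG00000028339.17, chr4:47208161-47313167, plus strand), F libraries had 1.96, 9.52 and 11.2 RPKM, 2d-U libraries 0 in each, 5d-U libraries 0.0274, 0 and 0.0770 and 2+3d-C libraries 2.28, 1.31 and 2.57. It had at most 10 reads in any uncompressed library and 773, 69 and 357 reads in 2+3d-C, without overlap. The log2 difference was 5.91 ± 1.14 (adjusted p of 0.00301) from 5d-U, the level was at least 163-fold higher than in 2d-U (adjusted p of 0.000297), and the log2 difference from F was -1.88 ± 0.92 (adjusted p of 0.156). For Col18a1, F libraries had 3.42, 18.5 and 22.2 RPKM, 2d-U libraries 3.54, 3.90 and 4.35, 5d-U libraries 1.03, 10.4 and 5.04 and 2+3d-C libraries 11.6, 2.31 and 5.11. All 4 groups overlapped in part, and its log2 difference from 5d-U was 0.21 ± 0.78 (adjusted p of 0.849).

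The transmembrane collagens, which stay anchored in the plasma membrane, moved in both directions. Col13a1 (ENSMUSG00000058806.14, chr10:61838236-61979108, minus strand), known from the neuromuscular junction, was the 1 collagen that was lower in 2+3d-C against 2d-U, and it was also lower against 5d-U. For Col13a1, F libraries had 0.0994, 4.21 and 3.52 RPKM, 2d-U libraries 2.59, 2.32 and 2.69, 5d-U libraries 1.66, 3.21 and 1.18 and 2+3d-C libraries 0.200, 0 and 0. That is 49, 0 and 0 reads in 2+3d-C against 111 to 632 in the uncompressed libraries, without overlap. Its log2 difference was -5.03 ± 1.46 (adjusted p of 0.0216) from 2d-U, -4.70 ± 1.44 (adjusted p of 0.0299) from 5d-U and -5.07 ± 1.46 (adjusted p of 0.0519) from F. F replicate 1, with 11 reads, lay among the compressed libraries. As all compressed reads were in replicate 4, the size of the difference rested on that library, and without it the fitted values were -11.42 from 2d-U and -11.09 from 5d-U. The call relative to 5d-U was lost without 2+3d-C replicate 5 (adjusted p of 0.059) or 5d-U replicate 2 (adjusted p of 0.0587).

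For Col17a1, the collagen of epithelial hemidesmosomes, F libraries had 1.24, 0.567 and 1.02 RPKM, 2d-U libraries 0.359, 0.150 and 0.288, 5d-U libraries 0.333, 0.0929 and 0.106 and 2+3d-C libraries 4.12, 1.23 and 0.129, with overlap between 2+3d-C and 5d-U. Its call relative to 5d-U (3.36 ± 1.11 log2 units, adjusted p of 0.0424) was lost without 2+3d-C replicate 4, where the value was 1.91 (adjusted p of 0.245), and without 5d-U replicate 2 or 6 (adjusted p of 0.106 and 0.144). It was also lost without 2d-U replicate 1 or 3 or F replicate 4 or 5 (adjusted p of 0.0504 to 0.0616). Col23a1 had 433, 3 and 2 reads in 2+3d-C, 0 in each 2d-U library (adjusted p of 0.00685), 24, 5 and 19 for 5d-U and 71, 292 and 400 for F. Col25a1 had 0, 1 and 0 reads in 2+3d-C, 1, 0 and 0 for 2d-U, 107, 39 and 41 for 5d-U (adjusted p of 0.0404) and 0, 103 and 239 for F.

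The short-chain collagen Col8a1, which forms hexagonal lattices beneath endothelia, was among the more abundant collagens in every group. For Col8a1, F libraries had 2.07, 19.5 and 17.7 RPKM, 2d-U libraries 6.12, 4.28 and 4.92, 5d-U libraries 6.71, 11.5 and 3.62 and 2+3d-C libraries 13.1, 8.37 and 13.1. Its log2 difference was 0.66 ± 0.64 (adjusted p of 0.424) from 5d-U and 1.17 ± 0.64 (adjusted p of 0.199) from 2d-U. Its partner Col8a2 had 96, 2139 and 2926 reads in F, 15, 9 and 10 for 5d-U and 0 in every library of 2d-U and 2+3d-C, so the related chains had different patterns. Of the genes that were called in no comparison of 2+3d-C, Col7a1 (anchoring fibrils) had at most 1.37 RPKM, Col26a1 1.35, Col10a1 0.404 and Col9a1 0.349 in any library.

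The 5 collagens called lower in 2+3d-C against 5d-U were thus Col13a1, Col25a1, Col8a2, the FACIT chain Col14a1 and Col28a1, a collagen of peripheral nerve. Col14a1 had 2, 0 and 0 reads in 2+3d-C, 27, 3 and 10 for 5d-U, 1, 0 and 1 for 2d-U and 121, 648 and 2238 for F. Col28a1 had 0 in each 2+3d-C and 2d-U library, 30, 0 and 4 for 5d-U and 150, 192 and 344 for F. The adjusted p relative to 5d-U was 0.0245 for Col14a1, 0.0479 for Col28a1 and 0.0167 for Col8a2, and against a floor of 3 reads in each 2+3d-C library Col28a1 was at least 2.70-fold and Col8a2 at least 2.62-fold lower. Col8a2 was lost without 2+3d-C replicate 4 (adjusted p of 0.0628), Col14a1 without 2+3d-C replicate 10 or 5d-U replicate 1 (adjusted p of 0.0672 and 0.0821), Col25a1 when any 1 of 6 libraries was left out (adjusted p of 0.0625 to 0.124) and Col28a1 when any 1 of 8 was left out (adjusted p of 0.0668 to 0.162). For all but Col13a1 the reads in 5d-U were few and were most numerous in replicate 1. The density over the silent families would give 27 reads on Col14a1, 19 on Col28a1, 49 on Col25a1 and 17 on Col8a2 in that library. In 5d-U replicates 2 and 6 it would give 0.661 and 8.31 reads on Col25a1, 0.228 and 2.86 on Col8a2, 0.356 and 4.47 on Col14a1 and 0.249 and 3.13 on Col28a1. Col14a1, Col25a1 and Col8a2 thus had more reads than this density gives in both of these libraries, as did Col25a1 and Col28a1 in replicate 1. After subtraction of this density from every library, 40 collagens could be tested, of which 1 was called lower and 16 were called higher. Of all 18680 genes tested then, 2774 were called lower and 2578 higher.

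**Figure D4:**
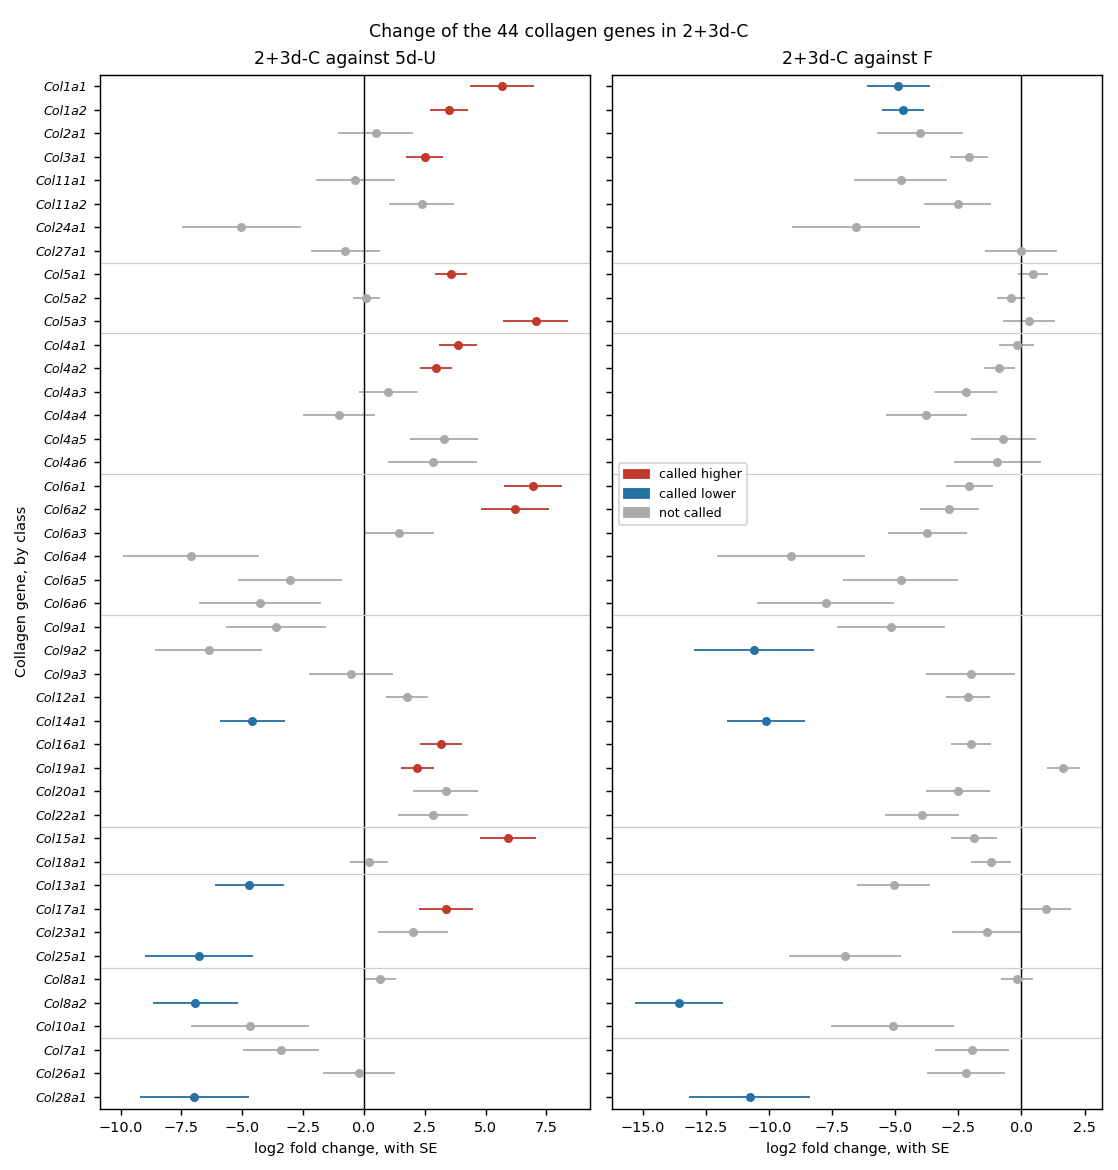
Log2 fold change with SE of the 44 collagen genes, by class, in 2+3d-C against 5d-U on the left and against F on the right, with genes called higher in red, lower in blue and not called in gray. On the left 13 genes are red and 5 blue, and on the right 6 are blue, with the 3 type V chains from -0.41 to 0.45; values of genes at 0 in a group depend on the prior count.

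Against F, the compressed cells were lower in 6 collagens, namely Col1a1, Col1a2, Col14a1, Col8a2, Col9a2 and Col28a1. Of these, Col8a2 was at least 264-fold lower, Col28a1 at least 38.0-fold lower and Col9a2, which had 7, 303 and 350 reads in F, at least 34.0-fold lower, against a floor of 3 reads in each 2+3d-C library. The log2 difference of Col14a1 was -10.13 ± 1.53 (adjusted p of 0.00313). The 3 type V and 6 type IV chains were not called, with log2 fold changes of -0.41 to 0.45 for type V at SEs of 0.56 to 1.02, so differences of that size could not be detected. The calls of Col9a2 and Col28a1 were lost without F replicate 4 or 5 or 2+3d-C replicate 5 (adjusted p of 0.0584 to 0.1), and that of Col9a2 also without 2+3d-C replicate 10 (adjusted p of 0.05). The count of 6 became 19 without F replicate 1, 3 without F replicate 4, F replicate 5 or 2+3d-C replicate 5, and 10 without 2+3d-C replicate 4. Among all genes, 1011 of 22635 were called lower in the main fit and 8878 of 27750 without F replicate 1. Without F replicate 4, F replicate 5 and 2+3d-C replicate 5 they were 222 of 23830, 265 of 22743 and 490 of 27911. Without 2+3d-C replicate 4 they were 1193 of 27025.

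Comparing F with the uncompressed cultures asks how cells from the animal differed from cells grown without compression. In F, 33 collagens were higher than in 2d-U (75%, against 33.3% of all genes) and 0 were lower (10.6% of all genes). Every F library lay above every 2d-U library for 32 collagens (32.1% of all genes) and below for 0 (20.4%). Against 5d-U, 18 were higher (40.9%, against 8.9% of all genes) and 0 were lower (11.6% of all genes), and all F libraries lay above for 27 (22.8%) and below for 0 (21.4%). At an unadjusted p under 0.05, 0 collagens were lower in F than in 2d-U and 0 than in 5d-U, and DESeq2 called 0 lower in each. Col1a1 had 211 ± 166 RPKM in F (SD, n = 3) and 0.141 ± 0.119 in 5d-U, a log2 difference of 10.54 ± 1.6 (adjusted p of 0.000483). Col6a1 had 149 ± 97.7 RPKM in F and 0.286 ± 0.226 in 5d-U, a log2 difference of 9.02 ± 1.29 (adjusted p of 0.000369). Of the 6 collagens with at least 3 RPKM in every 2d-U library, Col5a2, Col18a1 and Col8a1 were not called higher in F than in either culture.

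Between the cultures without compression, 2 collagens were higher in 5d-U (4.55%, against 1.87% of all genes) and 0 were lower (0.243% of all genes, with 0 collagens lower at an unadjusted p under 0.05 and 0 by DESeq2). They were Col12a1, with 144, 42 and 90 reads at 5 days and 1, 4 and 16 at 2 days (log2 difference 4.49 ± 0.99, adjusted p of 0.0361), and Col8a2 (adjusted p of 0.0483). All 5d-U libraries lay above all 2d-U libraries for 17 collagens (31.7% of all genes) and below for 1 (5.4%). The count of 2 was 13, 11 and 4 without 2+3d-C replicates 10, 4 and 5, 10 without 5d-U replicate 2, 1 without 2d-U replicate 1 or 3 and 0 without 2d-U replicate 2, 5d-U replicate 6 or F replicate 4 or 5. Among all genes, 424 of 22635 were higher in the main fit. They were 1239 of 27891, 761 of 27025 and 720 of 27911 without 2+3d-C replicates 10, 4 and 5, and 771 of 27076 without 5d-U replicate 2. In the other fits with a library of 2d-U, 5d-U replicate 6 or F replicate 4 or 5 left out, 142 to 235 genes were higher. The collagen count was 19 with DESeq2 (3000 of 49901 genes) and 0 after subtraction of the silent-family density (95 of 18680 genes).

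The genes that make, bind and accompany collagen are given by list, and their counts in 2+3d-C against 5d-U stand beside 9.14% of all genes called higher and 13.4% called lower. Of 16 prolyl and lysyl hydroxylases, glycosyltransferases and partners, 5 were called higher and 2 lower, the latter close to the share of all genes. For P4ha1, a catalytic subunit of prolyl 4-hydroxylase, F libraries had 67.5, 41.3 and 50.1 RPKM, 2d-U libraries 12, 8.17 and 7.79, 5d-U libraries 12.6, 12.7 and 8.01 and 2+3d-C libraries 65.2, 31.6 and 56.3. Compressed libraries lay above all uncompressed ones, with a log2 difference from 5d-U of 2.20 ± 0.41 (adjusted p of 0.00192). P4ha2 rose likewise (2.20 ± 0.47, adjusted p of 0.00407), whereas Ppib, a prolyl isomerase, fell (-2.54 ± 0.53, adjusted p of 0.00368). Of 10 chaperones and export factors, 1 was higher and 0 were lower, so the share called higher was close to that of all genes. It was Mia3, which loads procollagen for export from the endoplasmic reticulum (1.86 ± 0.39, adjusted p of 0.0038), while the collagen chaperone Serpinh1 had a log2 difference of -0.54 ± 0.51 (adjusted p of 0.415).

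Of 13 genes for propeptide removal and cross-linking, 4 were higher and 1 was lower than in 5d-U. For Lox, which cross-links fibrillar collagen, F libraries had 66.3, 112 and 164 RPKM, 2d-U libraries 2.31, 0.582 and 1.97, 5d-U libraries 4.66, 1.42 and 0.338 and 2+3d-C libraries 125, 33.6 and 49.6. Compressed and uncompressed libraries did not overlap, and the log2 difference from 5d-U was 5.02 ± 0.90 (adjusted p of 0.00137). Its relatives Loxl1 and Loxl2 had log2 differences of 3.76 ± 0.62 (adjusted p of 0.000759) and 7.52 ± 1.49 (adjusted p of 0.00262), and the procollagen C-proteinase enhancer Pcolce2 fell (-2.63 ± 0.62, adjusted p of 0.00798).

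Of 11 collagen receptors, 3 were higher and 0 were lower than in 5d-U. For Ddr2, a receptor tyrosine kinase for fibrillar collagen, F libraries had 14.1, 16.2 and 27.9 RPKM, 2d-U libraries 5.70, 3.27 and 3.73, 5d-U libraries 9.19, 7.73 and 4.74 and 2+3d-C libraries 35.8, 10.5 and 26.5, a log2 difference from 5d-U of 1.75 ± 0.49 (adjusted p of 0.0201). For Calcr, the receptor for type V collagen named above, F libraries had 21.2, 0.887 and 3.77 RPKM, 2d-U libraries 0.0387, 0 and 0, 5d-U libraries 0.311, 0 and 0.0375 and 2+3d-C libraries 20.1, 7.35 and 11.5, a log2 difference from 5d-U of 6.80 ± 1.56 (adjusted p of 0.00651). Both lay higher in every compressed than in every uncompressed library. Mrc2, a receptor that takes up collagen, had a log2 difference of 4.19 ± 0.74 (adjusted p of 0.00127), and Itgb1, the beta chain of the collagen-binding integrins, of 0.37 ± 0.48 (adjusted p of 0.561).

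Of 14 proteoglycans and glycoproteins that associate with fibrils, 9 were higher and 0 were lower than in 5d-U. For Prelp, which links basement membranes to connective tissue, F libraries had 98.5, 224 and 213 RPKM, 2d-U libraries 0 in each, 5d-U libraries 0.0722, 0 and 0.0541 and 2+3d-C libraries 137, 52.2 and 154. The log2 difference from 5d-U was 11.44 ± 1.0 (adjusted p of 1.65e-05). Fmod, Dcn, Ogn and Thbs2 also rose, by 7.50 ± 1.23, 4.18 ± 1.25, 3.83 ± 0.46 and 6.98 ± 0.97 log2 units (adjusted p of 0.00115, 0.0272, 7.69e-05 and 0.000225). Sparc, a collagen-binding glycoprotein, was not called (-1.33 ± 0.51, adjusted p of 0.0695). Dcn is also among the fibroadipogenic and Fmod among the tenocyte markers given below.

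Collagens are expressed by many cell types, and markers of several other cell types also differed between the groups. F libraries had a summed level of 6095, 32217 and 23521 CPM over 12 fibroadipogenic markers, 2d-U libraries 53.4 to 74.1, 5d-U libraries 123 to 151 and 2+3d-C libraries 3680, 5079 and 5373. Of the 12, 6 were called higher in compressed cells against 5d-U and all 12 against 2d-U, beside 9.14% and 16% of all genes. Most reads of that list in 2+3d-C were on Gsn (92791, 11897 and 77089 reads) and Serping1 (75623, 21726 and 30406 reads), with Dpt at 13253, 3113 and 4515. The defining marker Pdgfra had 454, 2 and 2 reads and Pi16 100, 0 and 3 reads in 2+3d-C, against 513, 3073 and 6185 and 69, 6482 and 4489 in F. Other members were present in each compressed library, with 8216, 3633 and 4073 reads of Dcn, 1857, 661 and 324 of Lum, 1268, 638 and 771 of Ly6a and 677, 140 and 156 of Cxcl14. In 2d-U these had 160, 18 and 499, 0 in each, 11, 0 and 15 and 19, 23 and 1 reads. In 5d-U they had 927, 29 and 31, 184, 5 and 8, 43, 199 and 825 and 22, 7 and 4 reads. Ly6a in 5d-U replicate 6 (33.5 RPKM) lay within the range of 2+3d-C (19.7, 64.0 and 29.2 RPKM). In F, the 2 libraries with the most collagen RNA were also those with the highest fibroadipogenic and tenocyte markers (796, 8407 and 8778 CPM over 7 tenocyte markers). Within 2+3d-C, replicate 5 had the least collagen RNA (679 CPM) but more fibroadipogenic markers than replicate 4 (5079 and 3680 CPM). It also had the highest endothelial and glial sums of that group (585 and 640 CPM) and the lowest tenocyte sum (150 CPM). In bulk RNA, fewer cells of a type and less RNA per cell cannot be told apart.

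**Figure D5:**
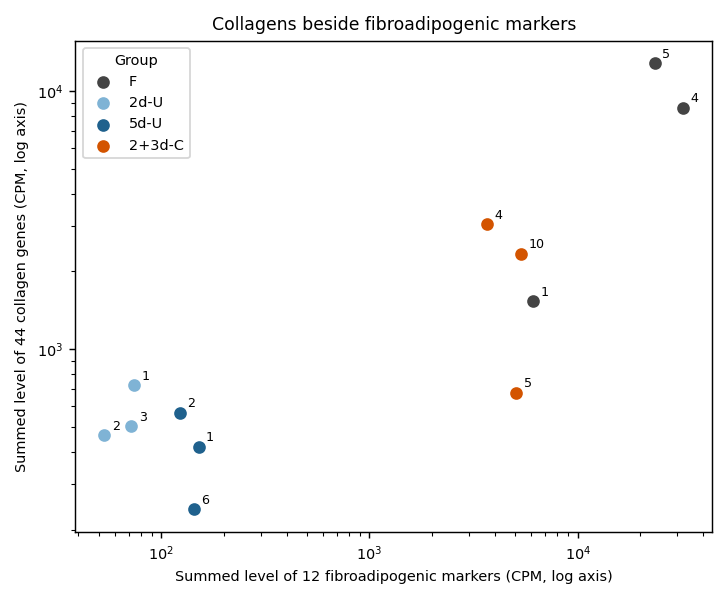
Summed level of the 44 collagen genes against that of 12 fibroadipogenic markers, both in CPM on log axes, with a point for each library, colored by group and numbered by replicate. The uncompressed libraries sit at 53.4 to 151 CPM of markers, 2+3d-C at 3680 to 5373 and F at 6095 to 32217.

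The other marker lists moved as follows, as summed CPM. Their calls in 2+3d-C against 5d-U stand beside 9.14% of all genes called higher and 13.4% called lower. Over 10 endothelial markers F libraries had 2091 to 2528, 2d-U libraries 14.0 to 15.6, 5d-U libraries 8.41 to 48.1 and 2+3d-C libraries 362 to 585, and 8 of 10 were called higher in 2+3d-C against 5d-U. Over 10 smooth muscle and pericyte markers F libraries had 1338 to 1955, 2d-U libraries 486 to 646, 5d-U libraries 640 to 1826 and 2+3d-C libraries 2562 to 2795, with 7 higher. Most of this sum in 2+3d-C was on Des, the intermediate filament of muscle cells (108995, 17479 and 41824 reads). The other 9 markers had 871 to 1216 CPM in F, 68.3 to 90.1 in 2d-U, 67.3, 646 and 745 for 5d-U libraries and 751, 450 and 816 for 2+3d-C libraries, so without Des the compressed libraries overlapped with 5d-U and lay below F. Nearly all of this sum in 5d-U replicates 2 and 6 was on Acta2 (18195 and 14636 reads), which had 7048, 2272 and 6038 reads in 2+3d-C. Against F, Des was called higher and Rgs5, a pericyte marker, lower. Mean levels in 2+3d-C and F were 7.89 ± 2.57 and 53.6 ± 35.2 RPKM for Rgs5, 7.03 ± 4.67 and 23.0 ± 11 for Myh11 and 2.63 ± 1.81 and 18.5 ± 13.8 for Pdgfrb (SD, n = 3). Besides Des, only Notch3 of this list had a higher mean in 2+3d-C than in F (37.6 ± 24.7 and 5.76 ± 2.58 RPKM). It had 24431, 647 and 8215 reads in 2+3d-C. Over 10 glial markers F libraries had 504 to 800, 2d-U libraries 4.19 to 5.33, 5d-U libraries 6.18 to 23.7 and 2+3d-C libraries 229 to 640, with 3 higher. The compressed libraries thus lay above both uncompressed groups on the endothelial and glial lists. On the smooth muscle and pericyte list the sum did so only with Des, and the overlap without Des rested on Acta2.

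The remaining sums are in CPM as well, with calls against 5d-U beside the same shares of all genes (9.14% higher and 13.4% lower). Over 10 immune markers F libraries had 796 to 2105, 2d-U libraries 0.665 to 2.23, 5d-U libraries 1.57 to 120 and 2+3d-C libraries 39.7 to 109. Of these markers, 1 was called higher and 1 lower, close to the shares of all genes. Relative to 2d-U, 4 of the 10 passed as higher (16% of all genes). The gene called lower was Ptprc, the general leukocyte marker, with 0 reads in each compressed library. Other immune markers were present there, with 212, 191 and 691 reads of Cd74, 1491, 582 and 114 of Lyz2 and 31, 52 and 26 of Tyrobp, and Ptprc and these 3 genes had 0 reads in every 2d-U library. Over 10 markers of mature fibers F libraries had 45 to 2980, 2d-U libraries 57.2 to 94.0, 5d-U libraries 286 to 3599 and 2+3d-C libraries 105 to 221, with 1 higher, close to the share of all genes, and 4 lower. Over the 7 tenocyte markers 2d-U libraries had 168 to 304, 5d-U libraries 177 to 998 and 2+3d-C libraries 150 to 339, with 4 higher and 1 lower. The gene called lower was Scx, a transcription factor of tendon cells, with 131, 155 and 20 reads in 2+3d-C and 3796, 7151 and 20248 in 5d-U. The 4 called higher were Thbs4, with 6742, 531 and 2609 reads in 2+3d-C and 98, 7 and 16 in 5d-U, Fmod (4507, 219 and 3357 and 10, 1 and 21), Chad (681, 100 and 1211 and 7, 0 and 9) and Tnmd (174, 77 and 204 and 6, 1 and 17). The part of these cell types in the collagen differences was not tested.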

How the data were processed

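RNA from sorted or cultured MuSCs was amplified by SMART-seq and sequenced as single-end reads. Per the labels, methods and file headers, the authors mapped these to mm10 in an nf-core workflow and counted them on GENCODE exons with featureCounts, ignoring strand. The deposited files hold whole-number read counts for 55335 genes, with exon lengths. The merged table was checked to equal the single libraries in 12 of 12 columns.

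The analysis used edgeR 4.0.16 in R 4.3.3, with genes passing filterByExpr (22635), TMM scaling, 1 quasi-likelihood fit over 12 libraries with a coefficient per group, and Benjamini-Hochberg adjustment over all tested genes. Calls were made at an adjusted p under 0.05, two-sided, and the SE of a log2 fold change is its size over the root of F. RPKM used TMM-scaled library sizes. Fitted fold changes against a group at 0 depend on the prior count, so bounds against 3 reads per library were given. Silent families comprised receptors for odor, pheromone and taste, with defensins and keratin-associated proteins. Alternatives were DESeq2 1.42.0, no TMM, no filter, a mean of at least 5 CPM, a replicate block, the compared groups alone, subtraction of the silent-family density and each library left out. The fitting steps were tested on simulated data, where they missed most of the known changes, so a gene that was not called may still differ.

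Any collagen gene could be named, and the 33 with a group mean of at least 10 RPKM or a call in 2+3d-C against 5d-U or 2d-U were given in every library. Of each other list, genes with the 3 highest levels or the 3 smallest p in 2+3d-C against 5d-U could be named. Pdgfra, Pi16, Lum, Ly6a, Cxcl14, Pdgfrb, Notch3, Vcam1, Pax7 and Tnmd, and the sum without Des, were added after their values were seen. The members and lists were chosen with earlier results of these data known.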

Additional observations from a re-analysis of the deposited data

How the results depend on the processing

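Counts of collagens called higher in 2+3d-C against 5d-U (13) or 2d-U (23), and in F against 5d-U or 2d-U (18 and 33), stayed within 1.5 times of these values under DESeq2, no TMM, no filter, a mean of at least 5 CPM, the compared groups alone and subtraction of the silent-family density. With single libraries left out they were 9 to 14, 17 to 24, 15 to 21 and 30 to 36. Those lower against 5d-U (5) were 3 with a mean of at least 5 CPM, 2 with the compared groups alone, 1 after subtraction and 2 to 5 with libraries left out (2 without 2+3d-C replicate 10 or 5d-U replicate 1, 3 without 2+3d-C replicate 4 or 5, 5d-U replicate 6 or F replicate 4 or 5), and those lower against 2d-U (1) were 0 with the compared groups alone and 1 to 2 with libraries left out (2 without 2+3d-C replicate 4). Fewer collagens were tested in these settings, 26 with a mean of at least 5 CPM, 33 with the groups compared with 5d-U alone and 40 after subtraction. Of all genes, 2354 of 10816, 2287 of 15055 and 2774 of 18680 were then lower against 5d-U, and 1727 to 3045 with libraries left out. Against 2d-U, 1641 of 13635 genes were lower with the compared groups alone and 1765 of 27025 without 2+3d-C replicate 4. Against F, those lower (6) were 18 with DESeq2, 17 without the filter and 3 to 19 with libraries left out, and those higher (0) were 0 to 1 (1 without F replicate 1). Of all 49901 genes, 4233 were lower against F with DESeq2 and 2240 without the filter, and 1185 of 27750 were higher without F replicate 1. In 5d-U against 2d-U, those higher (2) were 19 with DESeq2, 19 without the filter, 0 without TMM, 1 with a mean of at least 5 CPM, 0 after subtraction and 0 to 13 with libraries left out, and those lower (0) were 1 without the filter. Of all 49901 genes, 3000 were higher there with DESeq2 and 1867 without the filter. The log2 fold change of Col5a2 was -0.12 against 5d-U without TMM and -0.30 to 0.42 with libraries left out (negative without 2+3d-C replicate 4 or 5d-U replicate 6), and -0.89 to 0.063 against F, positive without F replicate 5. The cause was not tested.

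Pairs of groups share at most 2 replicate numbers, and deviations of same-numbered libraries correlated at -0.297 to 0.0285, so the numbers gave no sign of pairing. Such correlations between single libraries cannot exclude that groups shared sorts. The study's reporting summary states that each sorted batch was divided at random between conditions. With the replicate block, 2 collagens were higher and 11 lower in 2+3d-C against 5d-U, while 4 were higher against 2d-U, and 1 was higher and 18 were lower against F, with 7 higher in 5d-U against 2d-U and 19 and 6 higher in F against 2d-U and 5d-U. Of all 22635 genes, 728 were then higher and 3098 lower in 2+3d-C against 5d-U. Against 2d-U 1090 were higher, and against F 270 were higher and 1690 lower. In 5d-U against 2d-U 642 were higher, and in F 2151 and 829 were higher against 2d-U and 5d-U. The block reversed the sign of Col1a2 (-0.81), Col3a1 (-0.72), Col5a2 (-2.25) and Col16a1 (-0.94) against 5d-U, of Col1a1 (-1.42), Col1a2 (-1.21), Col4a2 (-0.0101), Col6a2 (-0.50) and Col16a1 (-0.94) against 2d-U, and of Col6a4 (-0.65), Col6a5 (-0.67), Col6a6 (-0.66) and Col25a1 (-2.42) in F against 2d-U. However, 2+3d-C shares no replicate number with 5d-U or 2d-U, so the block compares it with them only through F. F shares only number 1 with either of them. The blocked values thus depend on F replicate 1, which had 1533 CPM of collagen reads against 8614 and 12815 in F replicates 4 and 5. They cannot show whether pairing would change these results. Depth limits values near 10 reads, most in 2+3d-C replicate 5.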
